A study of Mus musculus with 9 samples.

Results

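The elastic fibre genes described here were 10 genes found by name in a table of 54532 mouse genes: Eln, Fbn1, Fbn2, Fbln1, Fbln2, Fbln5, Mfap2, Mfap4, Mfap5 and Lox. All 10 passed the filter on low counts and were among the 16526 genes tested. Their RNA was measured by bulk RNA sequencing in adipose-derived stem cells (ASCs), the stromal cells that grow from digested fat, taken from subcutaneous (Sub-ASCs), abdominal (Ab-ASCs) and perivascular (PVASCs) adipose tissue of C57BL/6 mice. Each group had 3 libraries, from cells expanded in a shared stem cell medium and harvested after a few passages. The labels name no genetic change and no agent in any group, so the groups differed in the depot of origin alone as far as labelled. The sources used here do not give the age or sex of these mice, the passage of each culture, or whether the libraries of a group came from separate animals, so p-values measure only the spread between these libraries, which may be technical.

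An elastic fibre has a core of elastin and a coat of microfibrils, and it lets skin, lung and the walls of large arteries stretch and recoil. Cells secrete tropoelastin, the soluble elastin monomer, which gathers into globules with the help of fibulins, is laid on fibrillin microfibrils and is then joined into an insoluble polymer when lysyl oxidases oxidise its lysines. In arteries smooth muscle cells make most of the elastic laminae, while fibroblast-like cells make the fibres of the adventitia and of loose connective tissue.

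The libraries held 20524173 to 29881036 reads assigned to genes, so that 3 reads correspond to between 0.0916 and 0.161 CPM, the count scaled to library size. The biological coefficient of variation, the spread between libraries of a group beyond counting error, was 5.70% in Sub-ASCs, 12.4% in Ab-ASCs and 3.85% in PVASCs. Levels are given as FPKM, read counts divided by gene length and by TMM-scaled library size, and differences are given on the log2 scale from edgeR's quasi-likelihood test with a Benjamini-Hochberg adjustment over all genes tested. In bulk samples such as these, fewer cells of a type and less RNA per cell cannot be told apart.

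The largest difference among the members was in Eln, which was 13.7-fold lower in PVASCs and 78.0-fold lower in Ab-ASCs than in Sub-ASCs. Mfap2, Mfap4 and Fbln1 were also higher in Sub-ASCs than in both other groups, whereas Fbn1, Fbln2, Fbln5 and Mfap5 were lower there than in both. These patterns were called for 28.7% and 27.5% of all genes tested. Fbn1, Mfap5 and Lox were highest in Ab-ASCs, and Fbn2 did not pass the test in any pair of groups. Between PVASCs and Sub-ASCs, 4 members were higher and 5 lower in PVASCs at an adjusted p under 0.05. That threshold called 70.4% of all genes tested, 34.7% being higher and 35.7% lower in PVASCs, so a count of called members says little about these genes apart from the rest. Between PVASCs and Ab-ASCs, 2 members were higher and 5 lower in PVASCs, where 56.9% of all genes passed, 24.7% higher and 32.1% lower. In Ab-ASCs, 5 members were higher and 4 lower than in Sub-ASCs, against 75.3% of all genes, 37.0% higher and 38.3% lower. For any difference among the 3 groups, 9 of 10 members passed, against 84.6% of all genes. Each pair of these comparisons shares the libraries of a group, so they are not independent of each other.

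The sizes of the differences were also set beside those of all genes. The median log2 difference of the members, without its sign, was 1.25 for PVASCs against Sub-ASCs, 0.483 for PVASCs against Ab-ASCs and 1.35 for Ab-ASCs against Sub-ASCs. Over all genes tested these medians were 0.587, 0.381 and 0.75. The signed medians of the members were -0.22, -0.244 and 0.355, and those of all genes were -0.0106, -0.0552 and -0.0256. Where a log2 difference of at least 1 was required as well, 1 member was higher and 4 lower in PVASCs against Sub-ASCs, beside 15.7% and 16.6% of all genes. The counts were 1 higher and 2 lower in PVASCs against Ab-ASCs, beside 10.1% and 5.31%, and 3 higher and 3 lower in Ab-ASCs against Sub-ASCs, beside 16.4% and 21.3%. The libraries of PVASCs and Sub-ASCs did not overlap for 10 of 10 members, against 77.3% of all genes. Those of PVASCs and Ab-ASCs did not overlap for 9 members, Fbln5 being the exception, against 63.9% of all genes. Those of Ab-ASCs and Sub-ASCs did not overlap for 9 members, Fbn2 being the exception, against 76.5% of all genes.

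**Figure D1:**
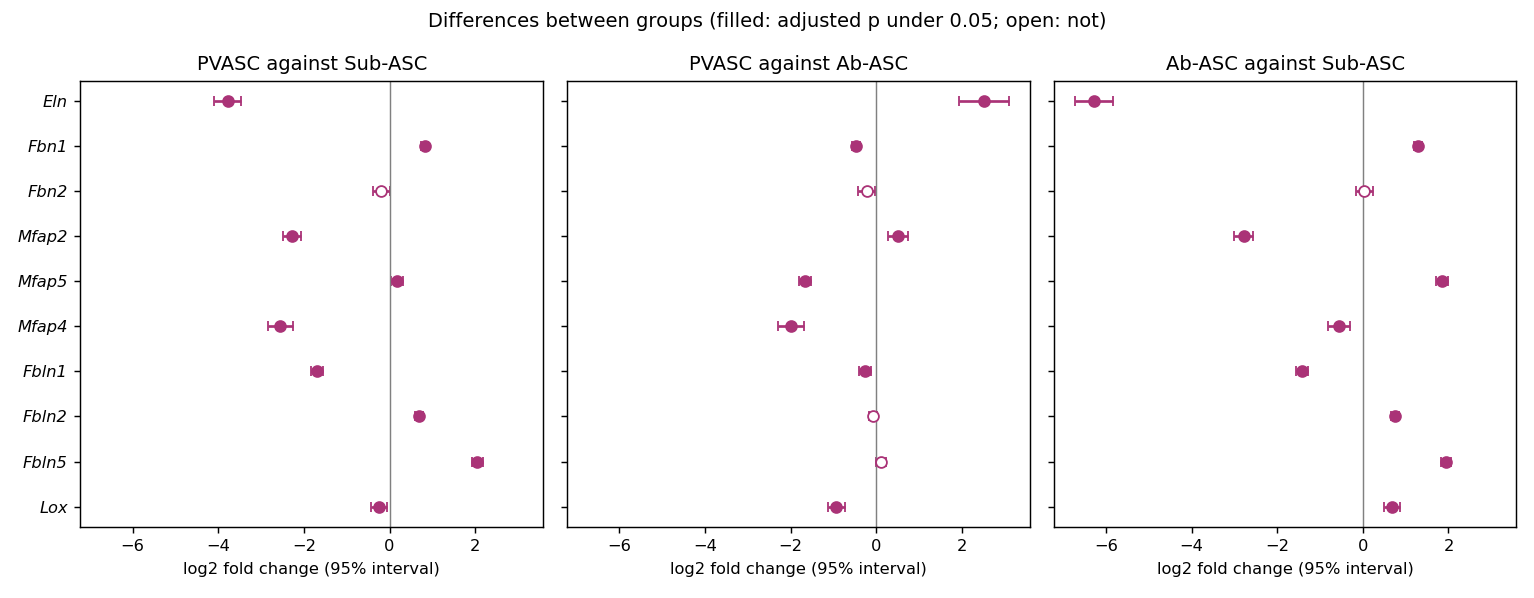
Log2 difference of each elastic fibre gene in each pair of groups (horizontal axis), from edgeR's quasi-likelihood test over 9 libraries, with bars for the 95% confidence interval and filled points for an adjusted p under 0.05. Eln lies at -3.78 for PVASCs and -6.29 for Ab-ASCs against Sub-ASCs, and the interval of Fbln2 for PVASCs against Ab-ASCs runs across 0.

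Promoter sequence is shown for 3 members with a called difference from Sub-ASCs in both other depots, a pair that was highest there (Fbln1, Mfap2) and Fbln5, which was lowest there, so that the windows can be read side by side. RefSeq promoter windows on GRCm38.p6 were matched for 5 of the 10 members, the others being Fbn1 and Fbln2. The RefSeq starts of those genes lie 1555 and 309 bases inside the listed gene, so that their windows fall within it and are not shown. Each run below is the 250 bases before the RefSeq start nearest to the listed 5′ end of the gene, written 5′ to 3′ on the strand of the gene. That start is the listed 5′ end for Fbln1, 6 bases inside the listed gene for Mfap2 and 64 bases before it for Fbln5. Capitals mark GGGCGG or its reverse complement CCGCCC, the core of a GC box.
Fbln1, chr15:85205699-85205948, plus strand: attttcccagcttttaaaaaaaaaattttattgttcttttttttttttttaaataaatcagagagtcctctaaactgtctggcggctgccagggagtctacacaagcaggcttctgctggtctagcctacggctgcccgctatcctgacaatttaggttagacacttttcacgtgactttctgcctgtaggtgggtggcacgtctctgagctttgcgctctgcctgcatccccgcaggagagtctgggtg
Mfap2, chr4:141010174-141010423, plus strand: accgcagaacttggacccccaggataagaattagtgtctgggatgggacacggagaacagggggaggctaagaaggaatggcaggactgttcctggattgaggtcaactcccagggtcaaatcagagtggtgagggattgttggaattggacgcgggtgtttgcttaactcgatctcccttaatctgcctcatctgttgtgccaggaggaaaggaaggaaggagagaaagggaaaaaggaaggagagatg
Fbln5, chr12:101819120-101819369, minus strand: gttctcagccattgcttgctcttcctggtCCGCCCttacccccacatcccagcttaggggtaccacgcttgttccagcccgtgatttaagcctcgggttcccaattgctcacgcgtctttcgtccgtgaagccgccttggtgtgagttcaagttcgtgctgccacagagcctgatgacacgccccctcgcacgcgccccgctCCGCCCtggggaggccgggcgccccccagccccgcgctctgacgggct

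Fbln1 (46.4% G and C) and Mfap2 (51.2%) held no GGGCGG on either strand, and Fbln5 (65.2%) held 2. The windows within Fbn1 (59.2%) and Fbln2 (58.8%) held 1 each. Over all 32851 RefSeq windows of the same length, 32.7% held GGGCGG on either strand, and the median G and C content was 52.4%. None of the 5 windows held TATAAA on either strand, against 12.4% of all windows that did. These are descriptions of a few windows, and nothing was tested on them.

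Eln (ENSMUSG00000029675, chromosome 5, 134702593 to 134747323 on the minus strand, positions as listed with the counts, GRCm38) encodes elastin, the elastic core itself. Its longest coding transcript in GENCODE M21 has 37 exons. In Sub-ASCs the libraries held 1062, 997 and 1195 reads of Eln, in Ab-ASCs 17, 5 and 13 reads, and in PVASCs 111, 89 and 97 reads. As levels these were 5.36 FPKM ± 0.456 (SD, n = 3) in Sub-ASCs, 0.0705 ± 0.0426 in Ab-ASCs and 0.391 ± 0.0247 in PVASCs. The 3 groups did not overlap, with every Sub-ASC library above every PVASC library and every PVASC library above every Ab-ASC library. The log2 difference was -3.78 (SE 0.146) between PVASCs and Sub-ASCs (edgeR adjusted p = 1.57e-10) and -6.29 (SE 0.203) between Ab-ASCs and Sub-ASCs (edgeR adjusted p = 2.89e-11). PVASCs stood 5.70-fold above Ab-ASCs, a log2 difference of 2.51 with a standard error of 0.269 (edgeR adjusted p = 8.89e-06). The Ab-ASC side of these differences rests on 5 to 17 reads a library, and over the alternative settings its log2 difference from Sub-ASCs ranged from -6.74 to -5.88. A gene antisense to Eln, Gm30003, had 0 or 1 read in each library.

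Fbn1 (ENSMUSG00000027204, chromosome 2, 125300594 to 125507993, minus strand, 65 exons) encodes fibrillin-1, the main building block of adult microfibrils. Its level was 65.7, 68.5 and 67.0 FPKM in the Sub-ASC libraries, 163, 162 and 165 in the Ab-ASC libraries, and 116, 120 and 119 in the PVASC libraries. The groups were separate and each was narrow, with PVASCs midway between the others. PVASCs exceeded Sub-ASCs by 0.82 on the log2 scale, a fold of 1.76 (edgeR adjusted p = 1.73e-09), and Ab-ASCs exceeded Sub-ASCs 2.44-fold (edgeR adjusted p = 2.49e-11). PVASCs were 1.38-fold below Ab-ASCs (edgeR adjusted p = 1.27e-06). Gm9913, on the opposite strand at the same place, had 9 to 22 reads in Sub-ASCs, 70 to 100 in Ab-ASCs and 102 to 142 in PVASCs, while Fbn1 had at least 18575 reads in every library. The library kit keeps no strand, and the share of reads exchanged between the genes was not tested.

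Fbn2 (ENSMUSG00000024598, chromosome 18, 58008623 to 58209926, minus strand, 65 exons) encodes fibrillin-2, the fibrillin used mostly in embryonic tissue. It held 249, 267 and 269 reads in Sub-ASCs, 177, 248 and 257 in Ab-ASCs, and 298, 276 and 284 in PVASCs. The corresponding means were 0.999 FPKM ± 0.0206, 1.02 ± 0.098 and 0.874 ± 0.016 (SD, n = 3 each). PVASC libraries lay below those of both other groups, by less than the test could call. The log2 difference between PVASCs and Sub-ASCs was -0.19, with a 95% interval of -0.39 to 0.0022 and an edgeR adjusted p of 0.0718. Between PVASCs and Ab-ASCs it was -0.22 (-0.42 to -0.02, edgeR adjusted p = 0.0539), and between Ab-ASCs and Sub-ASCs 0.03 (-0.17 to 0.23, edgeR adjusted p = 0.786). Leaving out the first Ab-ASC library, which had the lowest Fbn2 of its group, brought the PVASC to Ab-ASC comparison to an edgeR adjusted p of 0.0145. For any difference among the 3 groups the edgeR adjusted p was 0.0701.

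Mfap2 and Mfap5 encode the small microfibril-associated glycoproteins MAGP-1 and MAGP-2, which bind fibrillins. These paralogs differed between depots in opposite directions. Mfap2 (ENSMUSG00000060572, chromosome 4, 141010418 to 141015984, plus strand, 9 exons) was at 44.6, 48.2 and 51.8 FPKM in Sub-ASCs, 7.93, 6.12 and 6.99 in Ab-ASCs, and 10.8, 9.40 and 9.42 in PVASCs. Every Sub-ASC library was far above the rest, and the PVASC libraries lay just above the Ab-ASC libraries. Mfap2 was 4.88-fold lower in PVASCs than in Sub-ASCs (edgeR adjusted p = 3.08e-10), 6.89-fold lower in Ab-ASCs than in Sub-ASCs (edgeR adjusted p = 9.35e-11) and 1.41-fold higher in PVASCs than in Ab-ASCs (edgeR adjusted p = 0.00183).

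Mfap5 (ENSMUSG00000030116, chromosome 6, 122505845 to 122529290, plus strand, 10 exons) was at 32.2, 32.1 and 31.9 FPKM in Sub-ASCs, 127, 106 and 113 in Ab-ASCs, and 36.3, 36.0 and 36.8 in PVASCs. The Ab-ASC libraries stood apart, and those of the other groups lay close together without overlap. Ab-ASCs were 3.59-fold above Sub-ASCs (edgeR adjusted p = 6.14e-11), and PVASCs were 3.17-fold below Ab-ASCs (edgeR adjusted p = 9.07e-10). The 1.13-fold rise in PVASCs over Sub-ASCs passed at an edgeR adjusted p of 0.0216. It passed in 13 of 16 alternative fits, at an edgeR adjusted p of 0.000241 with only the groups compared. It no longer passed without the first or the third Sub-ASC library (edgeR adjusted p = 0.0584 and 0.0619) or the third PVASC library (edgeR adjusted p = 0.0502).

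Mfap4 (ENSMUSG00000042436, chromosome 11, 61485431 to 61488900, plus strand, 6 exons) encodes a fibrinogen-domain glycoprotein that binds tropoelastin and fibrillin-1. Its libraries held 372, 388 and 439 reads in Sub-ASCs, 216, 228 and 246 in Ab-ASCs, and 68, 94 and 93 in PVASCs. The means were 8.31 FPKM ± 0.388, 5.67 ± 0.381 and 1.42 ± 0.304 (SD, n = 3 each). PVASCs were lowest and Sub-ASCs highest, with no overlap, so that Mfap4 was the member in which PVASCs fell furthest below both other groups. Mfap4 was 5.85-fold lower in PVASCs than in Sub-ASCs (edgeR adjusted p = 2.88e-09) and 3.98-fold lower than in Ab-ASCs (edgeR adjusted p = 1.75e-07). Ab-ASCs were 1.47-fold below Sub-ASCs (edgeR adjusted p = 0.000937). Mapk7 overlaps Mfap4 on the opposite strand and held 929 to 1097 reads in Sub-ASCs, 662 to 797 in Ab-ASCs and 917 to 1059 in PVASCs, and whether its reads entered Mfap4 was not tested.

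**Figure D2:**
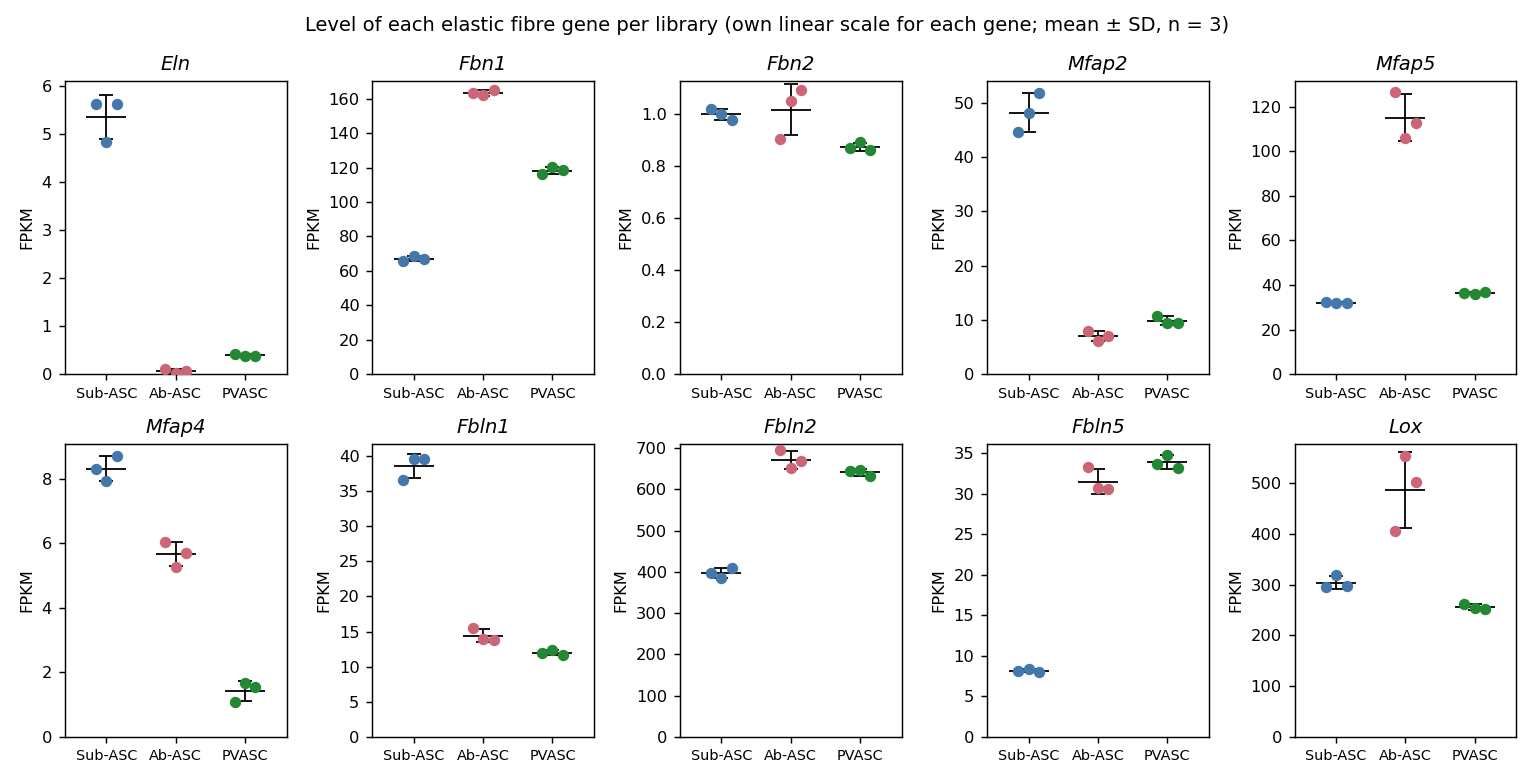
Level of each elastic fibre gene in each of the 9 libraries (points, FPKM on a linear axis from 0 that is set for each gene), with the mean and SD of the 3 libraries of each group as lines. As a ratio of highest to lowest, the Eln libraries are spread the most, from 0.0274 to 5.63 FPKM, and the Fbn2 libraries the least, from 0.861 to 1.09 FPKM.

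The fibulins are calcium-binding glycoproteins that bridge elastin to microfibrils and basement membranes. Fbln1 (ENSMUSG00000006369, chromosome 15, 85205949 to 85286535, plus strand, 17 exons), which encodes fibulin-1, an elastin-binding protein found within the fibre core, was at 36.6, 39.6 and 39.6 FPKM in Sub-ASCs, 15.5, 13.9 and 13.8 in Ab-ASCs, and 12, 12.4 and 11.6 in PVASCs. Sub-ASC libraries were highest by a wide margin. The fold was 3.22 between Sub-ASCs and PVASCs (edgeR adjusted p = 1.13e-10) and 2.68 between Sub-ASCs and Ab-ASCs (edgeR adjusted p = 5.77e-10), while PVASCs were 1.20-fold below Ab-ASCs (edgeR adjusted p = 0.0035).

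Fbln2 (ENSMUSG00000064080, chromosome 6, 91212455 to 91272540, plus strand, 18 exons) encodes fibulin-2, which binds fibrillin-1 and tropoelastin and is known in the inner elastic lamina of vessels. It was at 397, 386 and 409 FPKM in Sub-ASCs, 695, 652 and 669 in Ab-ASCs, and 645, 648 and 632 in PVASCs. Sub-ASCs were lowest, and the other groups lay next to each other, with the lowest Ab-ASC library just above the highest PVASC library. Fbln2 was 1.61-fold higher in PVASCs (edgeR adjusted p = 1.43e-08) and 1.69-fold higher in Ab-ASCs (edgeR adjusted p = 5.5e-09) than in Sub-ASCs. The log2 difference between PVASCs and Ab-ASCs was -0.07, with a 95% interval of -0.16 to 0.02 (edgeR adjusted p = 0.193).

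Fbln5 (ENSMUSG00000021186, chromosome 12, 101746565 to 101819055, minus strand, 11 exons) encodes fibulin-5, which binds cell-surface integrins and is needed for elastic fibre assembly in mice. It was at 8.08, 8.42 and 8.0 FPKM in Sub-ASCs, 33.3, 30.7 and 30.5 in Ab-ASCs, and 33.7, 34.8 and 33.2 in PVASCs. The libraries of PVASCs and Ab-ASCs overlapped, and both groups were far above Sub-ASCs. Fbln5 was 4.15-fold higher in PVASCs (edgeR adjusted p = 5.53e-12) and 3.86-fold higher in Ab-ASCs (edgeR adjusted p = 8.73e-12) than in Sub-ASCs. Between PVASCs and Ab-ASCs the log2 difference was 0.11 (95% interval -0.01 to 0.22, edgeR adjusted p = 0.103), which passed without the first Ab-ASC library at an edgeR adjusted p of 0.0104.

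Lox (ENSMUSG00000024529, chromosome 18, 52516069 to 52529867, minus strand, 7 exons) encodes lysyl oxidase, the copper enzyme that starts the crosslinking of elastin and collagen. It was at 296, 320 and 296 FPKM in Sub-ASCs, 406, 553 and 503 in Ab-ASCs, and 262, 255 and 251 in PVASCs. Ab-ASCs were highest and also the most spread, with the first Ab-ASC library lowest of the 3. Lox was 1.60-fold higher in Ab-ASCs than in Sub-ASCs (edgeR adjusted p = 1.76e-05) and 1.90-fold lower in PVASCs than in Ab-ASCs (edgeR adjusted p = 3.36e-06). The 1.19-fold lower level in PVASCs than in Sub-ASCs passed at an edgeR adjusted p of 0.0247. It passed in 11 of 16 alternative fits, at an edgeR adjusted p of 6.03e-06 with only the groups compared. It did not pass under upper-quartile scaling (edgeR adjusted p = 0.0738), without the second Sub-ASC library (edgeR adjusted p = 0.0952), or without the first, the second or the third PVASC library (edgeR adjusted p = 0.0519, 0.076 and 0.0866).

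Per unit length, Fbln2, Lox and Fbn1 were the 3 highest members in each group, in that order. Below them the order differed. In Sub-ASCs it went on with Mfap2, Fbln1, Mfap5, Mfap4, Fbln5, Eln and Fbn2, and Mfap4 and Fbln5 were the only neighbours whose libraries overlapped. In Ab-ASCs and in PVASCs it went on with Mfap5, Fbln5, Fbln1, Mfap2, Mfap4, Fbn2 and Eln. No neighbours overlapped in PVASCs or Ab-ASCs. Eln thus had the lowest FPKM of the 10 members in both of these groups, below Fbn2. The listed gene length joins the exons of every transcript, 8098 bases for Eln, so that a FPKM understates a gene whose usual transcript is shorter.

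**Figure D3:**
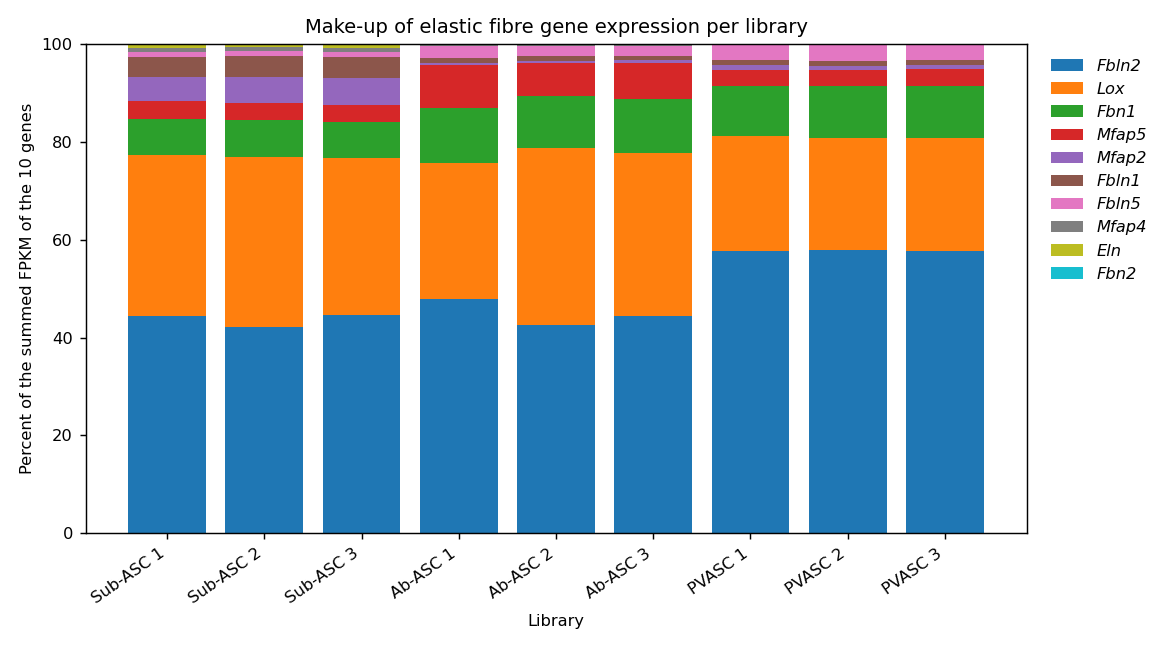
Share of each elastic fibre gene in the summed FPKM of the 10 members, in percent, for each of the 9 libraries. Fbln2 took 42.1 to 44.5% in Sub-ASCs, 42.6 to 47.8% in Ab-ASCs and 57.7 to 57.9% in PVASCs.

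The 10 members together took 0.51 to 0.52% of the reads in Sub-ASCs, 0.83 to 0.902% in Ab-ASCs and 0.778 to 0.792% in PVASCs. Most of the summed FPKM came from Fbln2 and Lox in every library. Lox made up 32.2 to 34.9% of the summed FPKM in Sub-ASCs, 27.9 to 36.1% in Ab-ASCs and 22.8 to 23.4% in PVASCs. Eln made up 0.528 to 0.629%, 0.00179 to 0.00774% and 0.0333 to 0.0374% in the same order of groups. Eln was not alone in this: Fbn2 made up 0.0623 to 0.114% in every library and Mfap4 0.0966 to 0.947%.

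Ratios between members within a library do not depend on the scaling of that library. The FPKM ratio of Mfap5 to Mfap2 was 0.617 to 0.721 in Sub-ASCs, 16.0 to 17.3 in Ab-ASCs and 3.36 to 3.91 in PVASCs. By FPKM, Mfap2 was thus the higher MAGP transcript in Sub-ASCs and Mfap5 in both other groups. Before division by length, Mfap5 was the higher in Sub-ASCs too, at 115 CPM against 58.3 CPM for Mfap2. The Sub-ASC order of this pair therefore rests on the listed lengths, 3589 bases for Mfap5 and 1211 for Mfap2. The ratio of Fbln5 to Fbln1 was 0.202 to 0.221 in Sub-ASCs, 2.14 to 2.21 in Ab-ASCs and 2.81 to 2.85 in PVASCs, which is also a change in which of the pair was higher. The ratio of Fbn1 to Fbn2 was 64.5 to 68.5, 151 to 180 and 134 to 138, with Fbn1 the higher in every library. Fbn1 exceeded Eln 11.7 to 14.2 times in Sub-ASCs, 1450 to 5910 times in Ab-ASCs and 278 to 323 times in PVASCs. These ratios describe the libraries and carry no test.

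**Figure D4:**
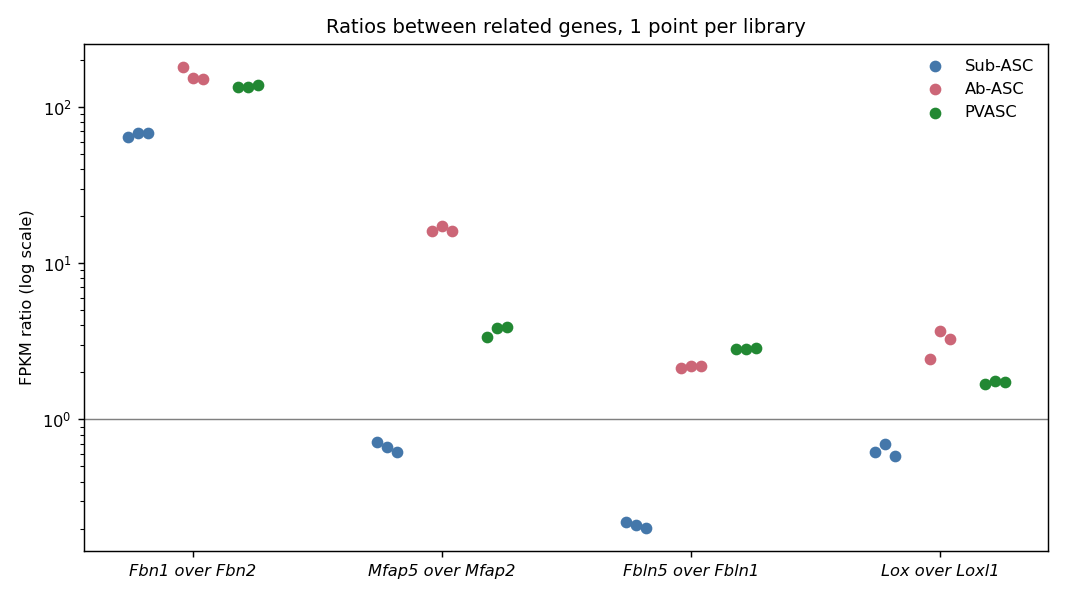
Ratios of FPKM between pairs of elastic fibre genes in each of the 9 libraries (points, log axis), coloured by group. The ratio of Mfap5 to Mfap2 lies between 0.617 and 0.721 in Sub-ASCs and between 16.0 and 17.3 in Ab-ASCs, with PVASCs between them.

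Genes that act on elastic fibres were examined in 4 further lists with 47 genes in all: crosslinking enzymes and their activators, assembly proteins, breakdown enzymes with their inhibitors, and TGF-β and integrin genes. Emilin3, Adamts17, Mmp7 and Elane did not pass the filter on low counts. Of the 43 tested, 15 were higher (34.9%) and 24 lower (55.8%) in PVASCs than in Sub-ASCs, beside 34.7% and 35.7% of all genes. The same counts of 15 and 24 held for Ab-ASCs against Sub-ASCs, beside 37.0% and 38.3% of all genes. In PVASCs 14 were higher (32.6%) and 20 lower (46.5%) than in Ab-ASCs, beside 24.7% and 32.1%. Of the same 43, 22 were called higher in Sub-ASCs than in both other groups and 13 lower, where all genes tested gave 28.7% and 27.5%. These shares are descriptions. Each difference given as a fold for these genes passed at an adjusted p under 0.05 in edgeR.

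In the crosslinking list 7 of 7 genes were tested, with 2 higher and 5 lower in PVASCs than in Sub-ASCs and 3 higher and 4 lower in Ab-ASCs than in Sub-ASCs. Loxl1, the lysyl oxidase relative most closely tied to elastin, differed from Lox in its order of groups, at 480.5 FPKM ± 23.0 in Sub-ASCs, 156.9 ± 8.67 in Ab-ASCs and 148.5 ± 6.03 in PVASCs (SD, n = 3 each). It was 3.24-fold lower in PVASCs (edgeR adjusted p = 4.57e-11) than in Sub-ASCs. The FPKM ratio of Lox to Loxl1 was 0.586 to 0.695 in Sub-ASCs, 2.43 to 3.68 in Ab-ASCs and 1.69 to 1.75 in PVASCs. Bmp1, the protease that releases active lysyl oxidase from its precursor, and Pcolce, an enhancer of that protease on procollagen, were lower in PVASCs, 2.54-fold and 2.96-fold below Sub-ASCs. The 2 genes of the list that were higher in PVASCs, named here after their values were seen, were the lysyl oxidase relatives Loxl3 (2.29-fold, edgeR adjusted p = 1.57e-09) and Loxl4 (2.40-fold, edgeR adjusted p = 7.22e-10).

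In the assembly list 17 of 19 genes were tested, with 6 higher and 8 lower in PVASCs than in Sub-ASCs and 4 higher and 10 lower in Ab-ASCs than in Sub-ASCs. Efemp2, which encodes fibulin-4, needed for elastic fibre formation, was at 482.0 FPKM ± 9.02 in Sub-ASCs, 187.8 ± 18.7 in Ab-ASCs and 122.0 ± 3.08 in PVASCs (SD, n = 3 each). Efemp1, which encodes fibulin-3, was 1.79-fold lower in PVASCs and 4.25-fold lower in Ab-ASCs than in Sub-ASCs. The fibulin gene Fbln7 and Adamtsl4, whose product promotes fibrillin assembly, were 8.22-fold and 2.31-fold lower in PVASCs than in Sub-ASCs.

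Ltbp2 went the other way. This fibrillin-like protein, which does not bind latent TGF-β, was at 7.01 FPKM ± 0.372 in Sub-ASCs, 269.5 ± 7.96 in Ab-ASCs and 71.9 ± 1.54 in PVASCs (SD, n = 3 each), a log2 difference of 3.36 between PVASCs and Sub-ASCs and of 5.26 between Ab-ASCs and Sub-ASCs. Ltbp4, which helps deposit elastin on microfibrils, was highest in PVASCs, at 11.3 FPKM ± 0.387, and 6.71-fold above Sub-ASCs. Relative to Sub-ASCs, Fn1 (fibronectin, on which fibrillin assembly depends in culture) was 2.87-fold and Hspg2 (perlecan) 1.36-fold higher in PVASCs.

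In the breakdown list 11 of 13 genes were tested, with 2 higher and 9 lower in PVASCs than in Sub-ASCs, and 3 higher and 8 lower in Ab-ASCs than in Sub-ASCs. The gelatinase gene Mmp2 was at 936.0 FPKM ± 12.4 in Sub-ASCs, 112.4 ± 5.33 in Ab-ASCs and 78.1 ± 1.98 in PVASCs (SD, n = 3 each). Ctsk, the gene of the elastin-degrading cathepsin K, was at 592.4 FPKM ± 8.7, 50.5 ± 5.95 and 35.5 ± 0.925 in the same order. Mmp14, which activates the Mmp2 product, and Ctss, the cathepsin S gene, were 4.15-fold and 5.18-fold lower in PVASCs than in Sub-ASCs. Mmp9 was highest in Ab-ASCs, at 2.42 FPKM ± 0.384, and 4.67-fold lower in PVASCs. The tissue inhibitors of metalloproteinases did not move together, as relative to Sub-ASCs Timp1 and Timp3 were 3.89-fold and 12.8-fold higher in PVASCs and Timp2 was 1.39-fold lower. Timp1 and Timp3 were the 2 genes of the list that were higher in PVASCs.

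In the list of TGF-β and integrin genes 8 of 8 were tested, and 5 were higher and 2 lower in PVASCs than in Sub-ASCs. Tgfb3 was at 5.31 FPKM ± 0.205 in Sub-ASCs, 17.7 ± 0.308 in Ab-ASCs and 22.9 ± 0.194 in PVASCs (SD, n = 3 each). Tgfb1 was highest in Ab-ASCs, with PVASCs 1.44-fold above Sub-ASCs, whereas the receptor gene Tgfbr2 was 5.02-fold lower in PVASCs than in Sub-ASCs. The integrin subunit gene Itgav was 2.29-fold above Sub-ASCs in PVASCs. Itga8 was lowest in Sub-ASCs, at 0.108 FPKM ± 0.0266, and at 1.41 FPKM ± 0.0124 in PVASCs.

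**Figure D5:**
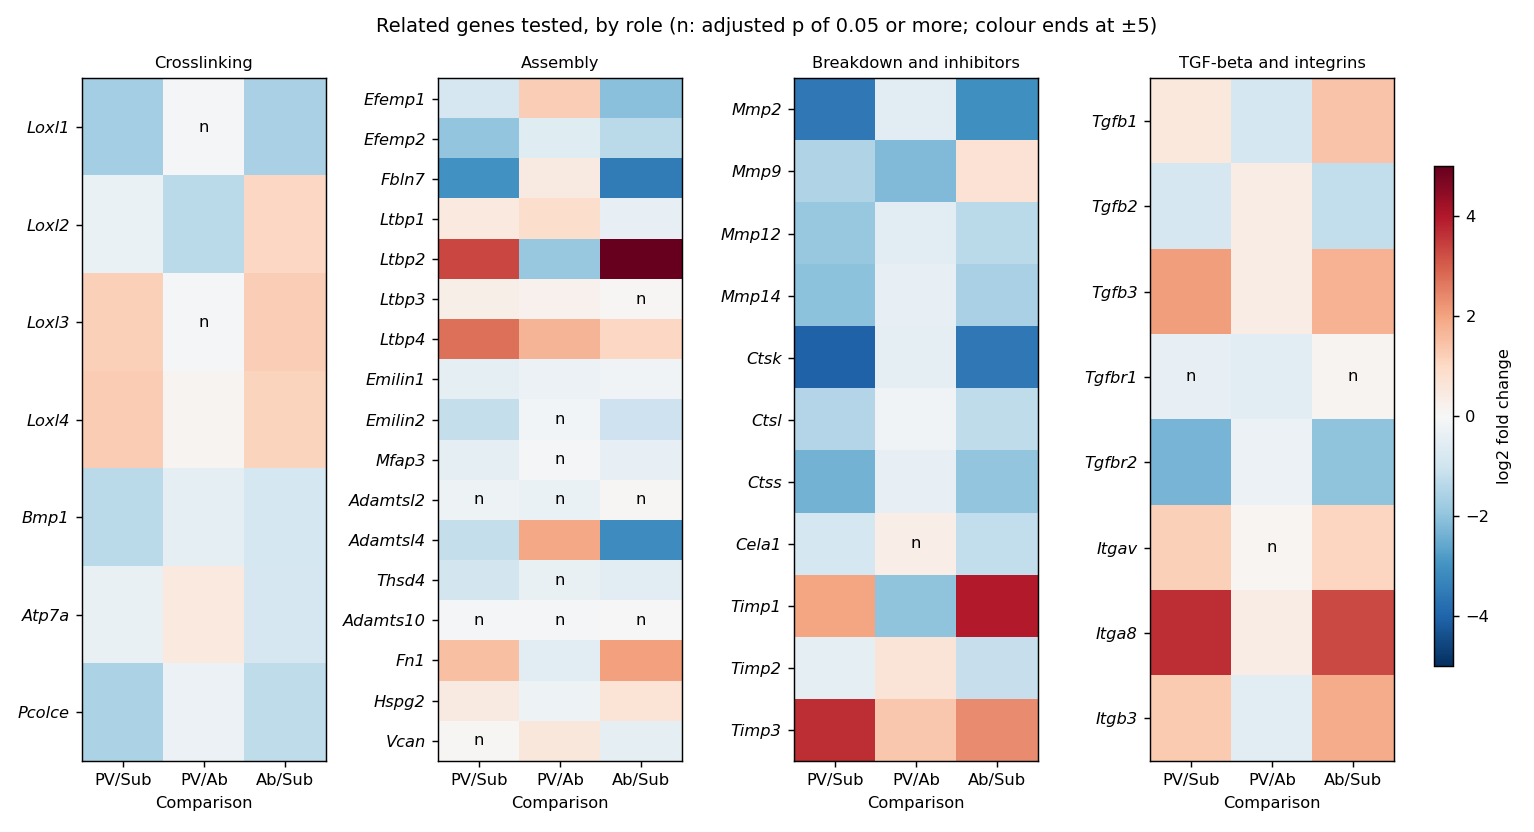
Log2 difference of each tested gene of the 4 lists (rows) in each pair of groups (columns), as colour from blue for lower to red for higher in the first group, where n marks an adjusted p of 0.05 or more. Mmp2 is dark blue in PVASCs against Sub-ASCs (-3.58), and Ltbp2 is darkest red, past the end of the colour scale at 5, in Ab-ASCs against Sub-ASCs (5.26).

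Markers of other cell types moved with the groups. The summed level of 6 smooth muscle markers was 60.7 to 65.3 CPM in Sub-ASCs, 4440 to 5520 in Ab-ASCs and 2700 to 2850 in PVASCs, and 5 of 5 tested markers were higher in PVASCs and in Ab-ASCs than in Sub-ASCs. Most of each sum was Acta2, at 52.7, 4432 and 2503 CPM in the same order, with Cnn1 at 0.248, 199 and 131 CPM and Myocd, which was not tested, at most at 0.425 CPM on average. The 6 adipose stromal progenitor markers summed to 5890 to 5950 CPM in Sub-ASCs, 1330 to 1460 in Ab-ASCs and 2150 to 2230 in PVASCs, and none was at 0 in any group. Most of the Sub-ASC sum came from Pdgfra and Ly6a, at 2707 and 2047 CPM, and the markers did not move as one, with 2 higher (Thy1 2.66-fold, Eng 3.03-fold) and 4 lower in PVASCs than in Sub-ASCs and 1 higher and 5 lower in Ab-ASCs than in Sub-ASCs. The 6 markers of proliferating cells summed to 49.9 to 56.4, 503 to 608 and 566 to 582 CPM, and 6 of 6 were higher in PVASCs and in Ab-ASCs than in Sub-ASCs.

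The 6 endothelial markers summed to 177 to 191 CPM in Sub-ASCs, 87.2 to 89.5 in Ab-ASCs and 758 to 772 in PVASCs, with 5 higher and 1 lower in PVASCs than in Sub-ASCs. The 8 mesothelial markers summed to 2.75 to 2.93, 121 to 131 and 47.8 to 49.6 CPM, with 7 of 8 higher in PVASCs and 8 of 8 in Ab-ASCs than in Sub-ASCs, and 2 of them, Upk1b and Lrrn4, were at 0 in Sub-ASCs. The 6 macrophage and blood cell markers summed to 239 to 243, 302 to 394 and 291 to 300 CPM, with 2 higher and 4 lower in PVASCs and in Ab-ASCs than in Sub-ASCs. Lyz2 made up most of these sums, at 162, 271 and 249 CPM, and the genes that were higher were Lyz2 and Csf1r, while Ptprc, Adgre1, Cd68 and Itgam were lower. The 4 adipocyte markers summed to 142 to 155, 34.9 to 38.2 and 45.5 to 48.2 CPM, with Lep at 0 in every library and 3 of 3 tested lower in PVASCs and in Ab-ASCs than in Sub-ASCs, and Fabp4 made up most of each sum, at 129, 36.5 and 46.2 CPM. The part of these markers in the differences of the elastic fibre genes was not tested.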

How the data were processed

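Bulk RNA was sequenced in 9 libraries of cultured mouse ASCs, 3 each of Sub-ASCs, Ab-ASCs and PVASCs, grouped by the labels. RNA was extracted with Trizol and prepared with the NEBNext Ultra kit, which keeps no strand. The authors deposited raw read counts per gene and library, with each gene's length, position and biotype. The submitters' processing notes list CASAVA 1.8, Bowtie 0.12.2 and featureCounts 1.5.0-p3 and name the builds mm8 and mm10 with no role. The annotation release and the strand setting are not given in the sources used here. Listed starts and ends were the same as in GENCODE M21 on GRCm38 for 53585 of 54532 genes (98.3%) and for 8 of the 10 members. Every per-sample column was used.

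From these counts, genes were filtered with filterByExpr, scaled by TMM and fitted in edgeR 4.0.16 (limma 3.58.1, R 4.3.3) with all 9 libraries in 1 fit and no covariate. The quasi-likelihood F-test gave each pair of groups and any difference, adjusted by Benjamini-Hochberg over 16526 genes at a threshold of 0.05. FPKM and CPM were computed here from the counts. The fit was run before use on simulated counts in which few genes differed and each gene had the same dispersion in every group. These data differ from that setting in both respects, so the simulation cannot vouch for the scaling or the shared dispersion here. Tables and figures were made with Python 3.11.15, pandas 2.3.3, numpy 2.4.6 and matplotlib 3.10.9. Intervals cover 95%, and errors of means are SDs over 3 libraries.

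The 10 members and all lists were chosen with earlier results of these data known. Named from each related list were the 3 called genes with the highest mean FPKM and every gene with a called log2 difference of at least 2 in size. For likeness to Eln the 5 genes with the highest correlation of log2 CPM (prior count 2) were named. Alternatives were DESeq2 1.42.0, RLE and upper-quartile scaling, no filter, at least 10 reads in every library, only the groups compared, the replicate number as a block, an absolute log2 difference of at least 1, and leaving out each library. Levels were also computed from the plain library total and as TPM.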

Additional observations from a re-analysis of the deposited data

How the results depend on the processing

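With a log2 difference of at least 1 required as well, the members higher in PVASCs than in Sub-ASCs went from 4 to 1 (all genes from 34.7% to 15.7%), and those in Ab-ASCs over Sub-ASCs from 5 to 3 (all genes from 37.0% to 16.4%). Between PVASCs and Ab-ASCs they went from 2 to 1 higher (all genes from 24.7% to 10.1%) and from 5 to 2 lower (all genes from 32.1% to 5.31%), and the related genes from 14 to 4 higher and from 20 to 4 lower. The related genes lower in PVASCs than in Sub-ASCs went from 24 to 15 (all genes from 35.7% to 16.6%). Every other alternative kept each count within 1.5 times. Among the members and named genes, directions turned only in differences that had not passed: Fbln2 between PVASCs and Ab-ASCs (0.0102 with only the groups compared), Fbn2 between Ab-ASCs and Sub-ASCs (-0.0164 with at least 10 reads in every library, and, over the leave-one-out fits, -0.0201 without the third to 0.1063 without the first Ab-ASC library) and Itgav between PVASCs and Ab-ASCs (-0.0281 without the first to 0.2103 without the second Ab-ASC library). The cause was not tested. Fbln5 between PVASCs and Ab-ASCs also passed under upper-quartile scaling (edgeR adjusted p = 0.0202), with at least 10 reads in every library (edgeR adjusted p = 0.0203) and with only the groups compared (edgeR adjusted p = 0.0104). Eln was not tested with at least 10 reads in every library, having 5 reads in an Ab-ASC library. Group levels of the members moved by more than 1 SD in 43 cases, 13 with the plain library total in place of TMM and 30 as TPM, which is another unit. Over the leave-one-out fits, 3 to 4 members were higher and 4 to 5 lower in PVASCs than in Sub-ASCs, and 2 to 3 higher and 5 to 6 lower in PVASCs than in Ab-ASCs.

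Same-numbered libraries of different groups deviated from their group means with correlations of -0.0514 to 0.095, so that the numbers were not taken to pair them. In PVASCs and Sub-ASCs 6 of 6 libraries correlated best with their own number, a hint from the data and not from the design, against 0 of 6 in PVASCs and Ab-ASCs and 3 of 6 in Ab-ASCs and Sub-ASCs. With the replicate block the members higher and lower were 4 and 5 between PVASCs and Sub-ASCs, 2 and 5 between PVASCs and Ab-ASCs, and 5 and 4 between Ab-ASCs and Sub-ASCs, as without it.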

Other observations

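Over the 9 libraries, the genes outside the list whose log2 CPM followed Eln most closely were Ivd (Pearson r = 0.9971), Fbxo21 (0.9955), Mettl27 (0.9954), Fam102a (0.9952) and Arid5a (0.9943). In all, 35 of 16516 genes had an r of at least 0.99. The libraries fall into 3 groups, so these values mostly describe the order and spacing of the group means. The differences in the followers were smaller than in Eln: Ivd was at 8.69 FPKM ± 0.173 in Sub-ASCs, 4.81 ± 0.43 in Ab-ASCs and 5.99 ± 0.184 in PVASCs, and Mettl27 at 5.62 ± 0.257, 0.762 ± 0.148 and 1.81 ± 0.116 (SD, n = 3 each).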
